A study of Caenorhabditis elegans with 2 samples.

Results

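The 71 genes described here encode the translation factors and aminoacyl-tRNA synthetases of the nematode Caenorhabditis elegans, and they were examined for occupancy by CRH-2, a basic leucine zipper protein of the CREB/ATF type. They are every protein-coding gene of the WBcel235 annotation whose symbol begins with eif-, ife-, iff- or ifg- (33 genes, here initiation factors) or eef- (6 genes, elongation factors), or consists of 1 letter followed by ars- and a number (32 genes, synthetases), out of 19973 protein-coding genes. Chromatin immunoprecipitation and sequencing (ChIP-seq) had been performed on whole L2 larvae of both sexes in strain OP425, which carries the unc-119(tm4063) III allele and the inserted transgene wgIs425. In wgIs425 the crh-2 coding sequence (C27D6.4) ends in GFP and FLAG, and the antibody label names only crh-2. There was 1 group of 2 biological replicates, both with this genotype, which leaves no contrast between conditions, and the labels do not say whether the replicates were separate cultures. The control library was not analysed here, so signal that open chromatin gives in any immunoprecipitation cannot be told apart from binding of CRH-2. A gene is called bound where the summit of a peak in the authors' list after the irreproducible discovery rate (IDR) procedure lay in the promoter window, which runs from 1000 bp before to 250 bp after the 5′ end of any of its transcripts. That list held 5735 peaks on ce11, the same sequence as WBcel235, with pooled signals between 62.3 and 1625 (median 103). The scale of the signal is not stated, and the depth of sequencing is unknown here.

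Translation begins when the eIF2 complex brings the initiator tRNA to the small ribosomal subunit, eIF4E and eIF4G bring the capped message, and eIF3 holds the assembly together. The exchange factor eIF2B recharges eIF2 with GTP, and stress kinases slow translation by phosphorylating eIF2 so that it blocks eIF2B. During elongation eEF1A delivers aminoacyl-tRNAs, eEF1B recharges eEF1A, and eEF2 moves the ribosome along, while the aminoacyl-tRNA synthetases join each amino acid to its tRNA in the cytoplasm or in mitochondria. Mammalian CREB/ATF factors are known for binding the cAMP response element, and the related factor ATF4 for driving synthetase genes under amino acid shortage. Trans-splicing replaces the 5′ end of many C. elegans messages, and the annotated end of such a gene can lie downstream of its transcription start.

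The DNA under 7 strong member peaks is shown to give the sequence behind the comparisons of signal. Each run is the RefSeq genome sequence of WBcel235 within 50 bp of the pooled summit, read 5′ to 3′ on the strand of the gene. Bases inside an annotated transcript, of that gene or of a neighbour, were left out. It is in lower case, and capitals mark a match to 1 of 7 motifs searched. The iff-2 run lies at chrII:8561384-8561484 on the minus strand, eef-1A.1 at chrIII:6972040-6972140 on the minus strand, eef-1G at chrV:10965633-10965718 on the plus strand and eef-1A.2 at chrX:7823204-7823304 on the plus strand. The eif-3.B run lies at chrII:14795099-14795199 on the plus strand, eef-1B.1 at chrIII:7973387-7973465 on the minus strand and ears-2 at chrIV:390469-390559 on the minus strand. In eef-1A.2 the capitals mark GAGAGAGA, and the other 6 runs held no match. The runs of eef-2 and eif-3.C, whose peaks rank above some of these, are not shown here, and that of eif-3.C holds TGACG at its summit.
iff-2: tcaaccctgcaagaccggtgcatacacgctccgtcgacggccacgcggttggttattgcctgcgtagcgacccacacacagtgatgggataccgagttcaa
eef-1A.1: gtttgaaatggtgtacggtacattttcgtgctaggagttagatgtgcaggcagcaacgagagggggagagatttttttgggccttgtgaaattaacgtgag
eef-1G: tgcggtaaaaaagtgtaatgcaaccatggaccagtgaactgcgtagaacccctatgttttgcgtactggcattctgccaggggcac
eef-1A.2: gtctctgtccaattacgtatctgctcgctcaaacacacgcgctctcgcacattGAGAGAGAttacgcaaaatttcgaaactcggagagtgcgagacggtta
eif-3.B: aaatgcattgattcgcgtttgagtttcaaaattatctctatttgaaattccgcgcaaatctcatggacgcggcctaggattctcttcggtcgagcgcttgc
eef-1B.1: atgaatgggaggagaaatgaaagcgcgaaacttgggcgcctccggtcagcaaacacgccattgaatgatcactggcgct
ears-2: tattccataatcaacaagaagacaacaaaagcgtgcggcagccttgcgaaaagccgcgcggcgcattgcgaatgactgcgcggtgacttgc

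The motifs were chosen as letters that CREB-type and other stress-related bZIP factors are known to bind, with 2 others often met in promoters. The set was the full cAMP response element TGACGTCA, the related TGACGTGG and TGACGTGT, the shared core TGACG, the E-box CACGTG, the ATF4-type TGATGNAA and the repeat GAGAGAGA. Both strands were searched, and TGACG also counts each match that lies within one of the 3 longer forms. The members that held a full ATF-type match were the eIF2B genes eif-2Bepsilon, at chrII:8661713-8661783 on the plus strand, and eif-2Balpha, at chrIII:9542983-9543083 on the plus strand. In the first the capitals mark TGACG and TGACGTCA, and in the second TGATGNAA on the opposite strand.
eif-2Bepsilon: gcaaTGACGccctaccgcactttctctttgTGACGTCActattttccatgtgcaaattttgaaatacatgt
eif-2Balpha: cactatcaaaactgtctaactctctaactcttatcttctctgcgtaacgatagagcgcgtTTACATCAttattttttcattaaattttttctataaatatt

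Genes of the translation machinery were bound at a higher share than the annotation as a whole, and the share differed between the 3 groups. Of the 71 members 42 were bound, or 59.2%, while 3857 of all 19973 protein-coding genes were bound, or 19.3%. All 6 elongation factors were bound, as were 23 of 33 initiation factors (69.7%) and 13 of 32 synthetases (40.6%). The members are the whole family and not a sample of it, and genes can share a summit, so these shares are descriptions with no test. Among the strongest 573 of the 5735 peaks the order was the same. These lay in the windows of 5 elongation factors, 3 initiation factors and 0 synthetases, and of 557 genes in all, 2.79% of the annotation. Each replicate alone gave counts close to these. The strongest 5735 regions of replicate 1 alone bound 42 members (23 initiation factors, 6 elongation factors and 13 synthetases) beside 18.8% of all genes, and those of replicate 2 bound 41 (21, 6 and 14) beside 18.9%. Both lists bound 38 of the 71 members, and 3160 of all 19973 protein-coding genes.

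**Figure D1:**
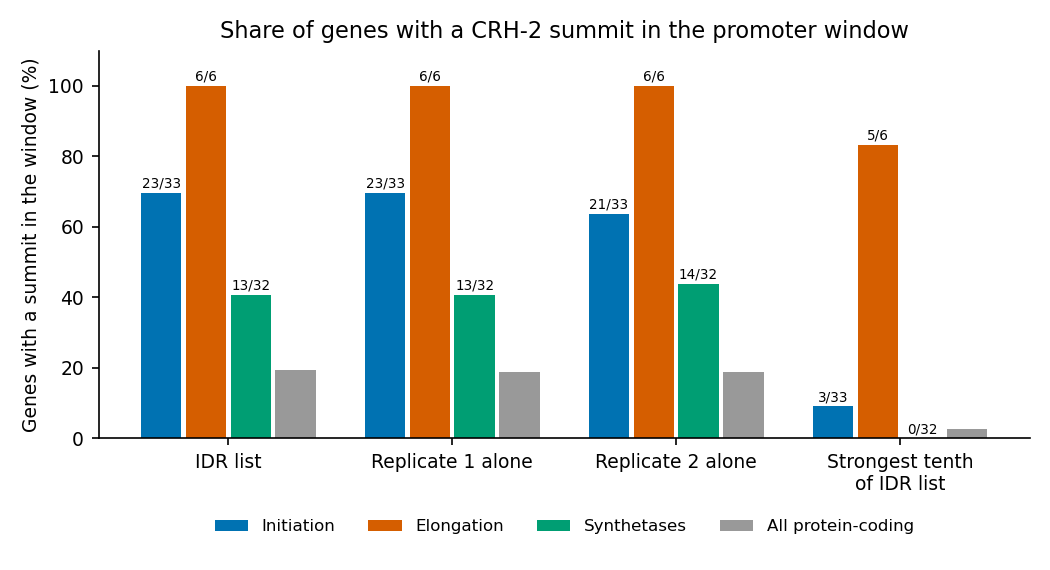
Percent of genes with a CRH-2 summit in the promoter window (vertical axis) for initiation factors, elongation factors, synthetases and all protein-coding genes, by the IDR list, each replicate alone and the strongest 573 IDR peaks. Counts stand over the bars. Elongation factors were bound in 6 of 6 cases by the first 3 lists, synthetases in 13 or 14 of 32, and all genes in 18.8% to 19.3%.

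Every elongation factor gene was bound, and 5 of the 6 had peaks among the strongest 573. Pooled signals lay between 117 and 502, and the median was 423 beside 116 over all bound genes. Values for single replicates are given here as the signal of the replicate's own region and as a relative signal, which is that signal divided by the median of the replicate over the IDR peaks (56.2 in replicate 1, 50.9 in replicate 2). The relative signal puts the replicates on 1 scale, and 1 is a typical peak.

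The genes for eEF1A, which carries aminoacyl-tRNAs to the ribosome, are eef-1A.1 and eef-1A.2. The eef-1A.1 summit lay 378 bp upstream of the gene, at position 6972090 of chromosome III, and ranked 85 of 5735 with a pooled signal of 502. Its regions had a signal of 241 in replicate 1 (rank 123) and 261 in replicate 2 (rank 67), a relative signal of 4.70 ± 0.596 (SD, n = 2). The same summit lay in the window of rfc-4, which encodes a subunit of the replication clamp loader and whose 5′ end was nearer, so the peak cannot be given to either gene from these data. The eef-1A.2 summit, 400 bp upstream at position 7823254 of chromosome X, was in no other gene's window. It ranked 186 with a pooled signal of 387, and had a signal of 217 in replicate 1 (rank 166) and 173 in replicate 2 (rank 202), a relative signal of 3.63 ± 0.326 (SD, n = 2). Both windows thus held a strong peak at several times the typical signal in each replicate, and only that of eef-1A.2 was unshared.

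The nucleotide exchange factor eEF1B is encoded by eef-1G (gamma subunit), eef-1B.1 and eef-1B.2 (beta or delta subunits), and its genes spread widely in signal. The eef-1G summit lay 36 bp upstream at position 10965683 of chromosome V, shared with ctf-4, named for a replication protein. It ranked 92 with a pooled signal of 485 (replicate 1, 260, and replicate 2, 222 at rank 98). Its relative signal was 4.49 ± 0.190 (SD, n = 2), with the replicates 1.06-fold apart. For eef-1B.1 the strongest of 2 summits lay 29 bp upstream at position 7973415 of chromosome III, shared with aco-2, which encodes the mitochondrial aconitase. It ranked 423 with a pooled signal of 279 (replicate 1, 157 at rank 373, and replicate 2, 122 at rank 508), a relative signal of 2.60 ± 0.278 (SD, n = 2). The third gene, eef-1B.2, stood apart with a typical peak, at rank 2349 with a pooled signal of 117. Its relative signal of 1.09 ± 0.215 (SD, n = 2) lay under those of the other elongation factors in both replicates.

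The translocase gene eef-2 had its summit 11 bp upstream of an annotated 5′ end, in a window shared with clsp-1, whose name is that of the checkpoint protein claspin. The peak ranked 109 with a pooled signal of 460 (replicate 1, 277 at rank 84, and replicate 2, 181 at rank 184). Its relative signal of 4.24 ± 0.984 (SD, n = 2) had the largest spread of the elongation factors. Of the 4 strongest elongation factors eef-1A.2 had the lowest relative signal in both replicates (3.86 and 3.40). The order of eef-1A.1 (4.28 and 5.13), eef-1G (4.63 and 4.36) and eef-2 (4.94 and 3.55) differed between replicates 1 and 2.

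**Figure D2:**
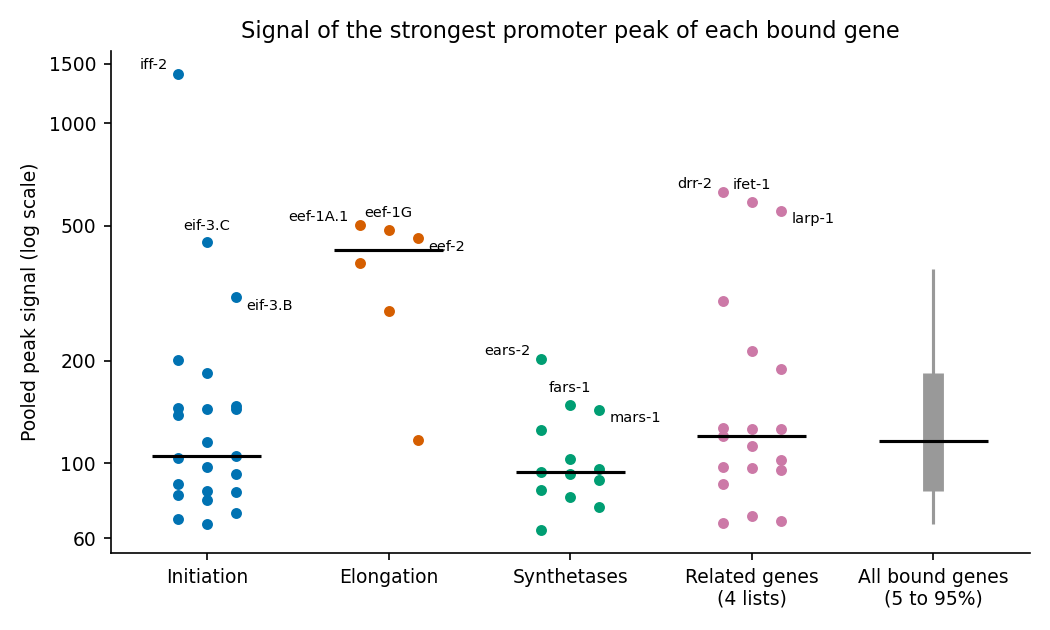
Pooled signal of the strongest promoter peak (vertical log axis) of each bound initiation factor, elongation factor, synthetase and related gene (points), with the group median as a black line. For all bound genes the grey bar spans the 25th to 75th percentile and the grey line the 5th to 95th. The elongation factors lie between 117 and 502, and no synthetase lies above 202.

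Initiation factors were bound in 23 of 33 cases, mostly with ordinary signals. Pooled signals lay between 66.0 and 1401 (median 105), and the median relative signal was 1.02 ± 0.0623 (SD, n = 2). It was 1.10 ± 0.0129 over the 3823 bound genes whose peak had a region in both replicates. Of these 23 genes 3 stood out, namely iff-2, eif-3.C and eif-3.B.

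The gene iff-2 encodes eIF5A, which carries the modified residue hypusine and helps ribosomes through slow stretches and at stop codons. Its peak was the fourth strongest of the 5735, with a pooled signal of 1401 and a summit 67 bp upstream of the gene, at position 8561434 of chromosome II. The region had a signal of 800 in replicate 1 and 605 in replicate 2, at rank 4 in each, so that the relative signal was 13.1 ± 1.67 (SD, n = 2). The window of F54C9.14 also held the summit. The other eIF5A gene, iff-1, which is known for a role in the germline, was not bound. It had a pooled region with a summit in its window only at rank 10603 with a signal of 37.1, and relative signals of 0.33 and 0.31 in replicates 1 and 2. The prefix places both genes with the initiation factors, although eIF5A is now known mainly for elongation. Counted there, bound genes would be 22 of the initiation and 7 of the elongation factors.

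The scaffold complex eIF3 was bound at 8 of its 11 genes, and its core subunits eif-3.C and eif-3.B had the strongest peaks. The eif-3.C summit, 244 bp upstream, ranked 121 with a pooled signal of 446 (replicate 1, 217 at rank 163, and replicate 2, 226 at rank 95) and was in no other window. That of eif-3.B, 255 bp upstream at position 14795149 of chromosome II, ranked 337 with a pooled signal of 308 (replicate 1, 175 at rank 294, and replicate 2, 153 at rank 295), also in no other window. Their relative signals were 4.16 ± 0.403 and 3.06 ± 0.0812 (SD, n = 2), so both lay within the range of the elongation factors in each replicate. The next subunit gene, eif-3.E, ranked 1057 with a pooled signal of 184 (replicate 1, 108 at rank 870, and replicate 2, 72.3 at rank 1555). The signals of eif-3.J, eif-3.H, eif-3.D, eif-3.I and eif-3.G were lower still, from 144 down to 82.5. The 3 genes not bound were eif-3.F, eif-3.K and eif-3.L. So the genes of 1 complex ran from strong peaks to none.

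The complex eIF2 and its exchange factor eIF2B differed in the same annotation. All 5 eIF2B genes were bound. The strongest was eif-2Bbeta at rank 881, with a pooled signal of 201 (replicate 1, 104 at rank 937, and replicate 2, 99.6 at rank 804), in a window shared with Y47H9C.8. The others were eif-2Bepsilon (146), eif-2Bgamma (105), eif-2Balpha (71.3) and eif-2Bdelta (68.2), in pooled signal. The eif-2Bgamma summit lay 904 bp upstream, beyond the end of a same-strand neighbour, C15F1.5. Of the eIF2 genes, eif-2beta (pooled signal 93.1) and eif-2gamma (77.8) were bound and eif-2alpha, whose product carries the site that stress kinases phosphorylate, was not. The eif-2beta summit fell inside the gene, upstream of an internal 5′ end. The contrast between the complexes depended on the setting. With each summit given to the closest 5′ end, eif-2Bbeta and eif-2Bepsilon were not bound. With a window from 500 bp upstream to 100 bp downstream eif-2Bgamma was not bound, and by replicate 2 alone eif-2Bdelta was not. With a window from 2000 bp upstream to 500 bp downstream eif-2alpha was bound.

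Cap-binding proteins of the eIF4E family were bound at 3 of 5 genes, ife-2 (pooled signal 145), ife-3 (86.6) and ife-4 (66.0). Not bound were ife-1 and ife-5, known from the germline, where ife-3 also acts. In whole larvae binding in a few cells and binding in none cannot be told apart at this signal. The single eIF4G gene, ifg-1, which links the cap-binding protein to the ribosome, had a pooled signal of 103 and a summit 580 bp upstream. The scanning factors eif-1 (80.6) and eif-1.A (82.1) and the large-subunit factor eif-6 (147) were bound. The factors eif-2A and eif-2D, known for other routes of initiator tRNA delivery, and eif-4A3, a helicase of the exon junction complex, were not.

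A lower share of synthetase genes was bound than of the other groups, and most had signals near or under the typical peak. Pooled signals lay between 63.4 and 202 (median 94.0), and the median relative signal was 0.913 ± 0.111 (SD, n = 2). The 5 strong elongation factors lay above every synthetase in each replicate, since the lowest of them, eef-1B.1, had a relative signal of 2.80 in replicate 1 and 2.40 in replicate 2, and the highest synthetase, ears-2, 1.87 and 1.90. The strongest synthetase peak thus belonged to ears-2, the mitochondrial glutamyl enzyme, 43 bp upstream at position 390511 of chromosome IV and in a window shared with uncp-18. It ranked 867 with a pooled signal of 202 (replicate 1, 105 at rank 909, and replicate 2, 96.5 at rank 873).

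The next synthetases by signal charge phenylalanine, methionine, histidine and valine. The fars-1 peak ranked 1579 with a pooled signal of 148 (replicate 1, 73.6 at rank 1798, and replicate 2, 64.4 at rank 1891), but its summit lay 896 bp upstream and in the window of rbm-5. That of mars-1 ranked 1693 with a pooled signal of 143 (replicate 1, 69.0 at rank 2011, and replicate 2, 78.6 at rank 1334), in a window shared with F58B3.6. The hars-1 peak, shared with T11G6.2, ranked 2097 with a pooled signal of 125 (replicate 1, 71.4 at rank 1912, and replicate 2, 57.8 at rank 2271). Of the 5 strongest synthetases, vars-1 alone had a summit in no other window. It ranked 2877 with a pooled signal of 103 (replicate 1, 53.8 at rank 3016, and replicate 2, 54.8 at rank 2478). The other bound synthetases were rars-1, nars-1, kars-1, aars-1, sars-1, tars-1, lars-1 and cars-1, with pooled signals from 95.9 down to 63.4. The rars-1 summit lay 975 bp upstream, near the far end of the window, and was also in the window of rpb-8. By the strongest regions of replicate 2 alone rars-1 was not bound.

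The share of bound synthetase genes differed by the number in the symbol, which in most but not all cases sets cytoplasmic enzymes (1) apart from mitochondrial ones (2). Of 11 member genes numbered 2 only ears-2 was bound (9.09%), and of 21 numbered 1 or 3 there were 12 (57.1%). Over all protein-coding genes the share was 19.3%. By replicate the count for genes numbered 2 was 1 in the strongest regions of replicate 1, beside 18.8% of all genes. It was 3 in those of replicate 2, beside 18.9%, where aars-2 and sars-2 were added to ears-2. The numbering is not a strict guide. RefSeq names 4 of the products as mitochondrial, and of these ears-2 and aars-1 were bound while pars-2 and rars-2 were not. The numbering of the alanine enzymes is reversed, with aars-1 mitochondrial and aars-2 cytoplasmic. The unbound genes numbered 2 were aars-2, dars-2, fars-2, iars-2, lars-2, nars-2, pars-2, rars-2, sars-2 and yars-2. The unbound genes numbered 1 or 3 were dars-1, ears-1, fars-3, gars-1, iars-1, pars-1, qars-1, wars-1 and yars-1. The gene numbers also differed in gene spacing, because 6 of 11 genes numbered 2 and 5 of 21 others had a same-strand gene ending within 500 bp upstream. The part of this spacing in the difference was not tested.

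The gene Y105E8A.20, which RefSeq but not the Ensembl annotation names mars-2, is outside the 71 members. Its window held a peak at rank 3781 with a pooled signal of 85.3, 46 bp upstream, where the relative signal was 0.820 ± 0.322 (SD, n = 2). With it, 14 synthetases would be bound, and ears-2 would not be the only bound gene numbered 2. The unbound tyrosine enzyme gene yars-1 lies 109 bp behind it on the same strand.

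Members at the edge of the IDR list changed with the replicate. The list ended at a signal of 62.3, and cars-1 (rank 5634, 63.4), ife-4 (rank 5344, 66.0) and eif-2Bdelta (rank 5144, 68.2) lay just inside it. The cysteine enzyme gene cars-1 had a signal of 16.9 in replicate 1 (rank 13847) and 51.1 in replicate 2 (rank 2777), relative signals 3.34-fold apart. The cap-binding gene ife-4 had 44.6 in replicate 1 (rank 3917) and 15.4 in replicate 2 (rank 14468), which is 2.62-fold apart in relative signal. The replicates thus did not agree on either gene. For eif-2Bdelta they were 1.18-fold apart, with a signal of 39.3 (rank 4731) and 30.2 (rank 5973). Just outside the list, the pooled regions of iars-1 (rank 5941, 60.4), yars-2 (rank 6118, 59.0) and gars-1 (rank 6247, 58.0) differed little from these in signal. Of the 29 unbound members, 18 (62.1%) had a summit in their window among the 30000 pooled regions, which include background, beside 31.8% of all unbound genes. Absence from the IDR list therefore does not mean that no signal was seen.

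The replicates gave like values for most bound members, counted here together with those at the edge. Members and all bound genes were both taken from the IDR list, which rests on the same 2 replicates. This likeness is therefore not independent of how the peaks were selected. Over the 42 bound members the replicates' relative signals were within 2-fold for 40 (95.2%), and within 1.5-fold for 38. Of the 3857 bound genes, 3823 had a peak with a region in both replicates, and 95.6% of these were within 2-fold. The others, with no region in at least 1 replicate, are left out of the comparisons that follow. The SD of the log2 ratio of the replicates was 0.46 over members and 0.47 over the 3823 genes. Replicate 1 was the higher in 24 members and replicate 2 in 18. The replicates' summits lay a median of 16 bp apart over members and 18 bp over the 3823 genes. By group the gap was 5.5 bp for elongation factors, 16 bp for initiation factors and 29 bp for synthetases.

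**Figure D3:**
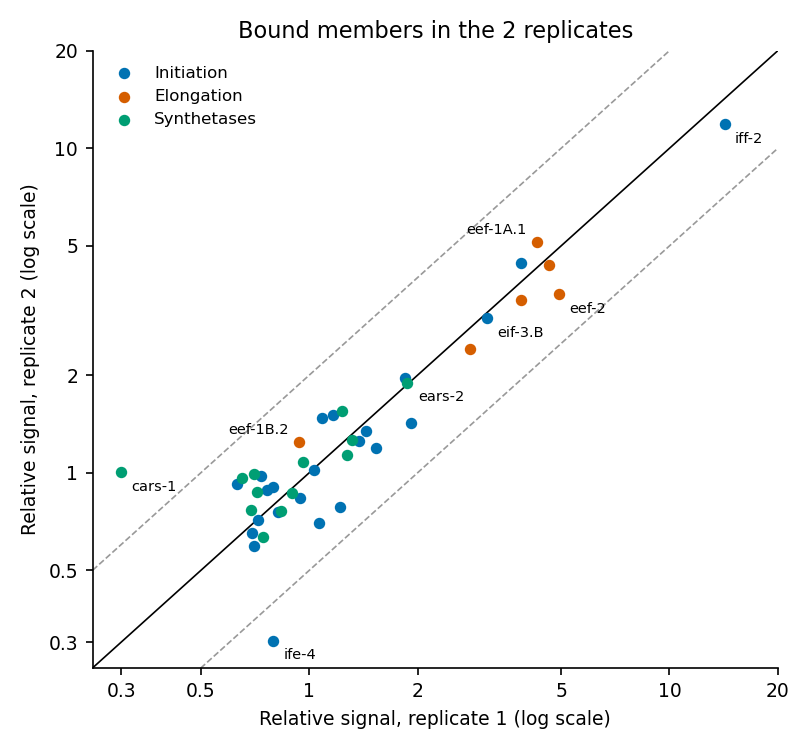
Relative signal of the 42 bound members in replicate 1 (horizontal log axis) and replicate 2 (vertical log axis), coloured by group. The solid line marks equal values and the dashed lines a 2-fold difference. Only cars-1 and ife-4 lie outside the dashed lines, and iff-2 lies highest in both replicates.

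Nearly all member summits were upstream of an annotated 5′ end. Of 42, 41 lay upstream of the nearest one, beside 3594 of 3857 over all bound genes. The window itself reaches 1000 bp upstream and only 250 bp downstream. The summit of eif-2Bdelta lay 30 bp downstream. The summits of eif-2beta and tars-1 lay upstream of an internal 5′ end and so inside the gene, and both genes were not bound when the outermost 5′ end alone was used. Within 500 bp upstream there were 36 (85.7%), beside 73.2% of all bound genes. The median position was 247.5 bp upstream over all 42 members, beside 223 bp over all bound genes. Downstream summits entered these medians as negative distances, 1 among the members and 263 among all bound genes. Those of eef-2, eef-1B.1 and eef-1G lay closest among the elongation factors, at 11 to 36 bp, and those of eif-3.J, eif-2Bgamma, fars-1 and rars-1 lay between 896 and 975 bp upstream.

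**Figure D4:**
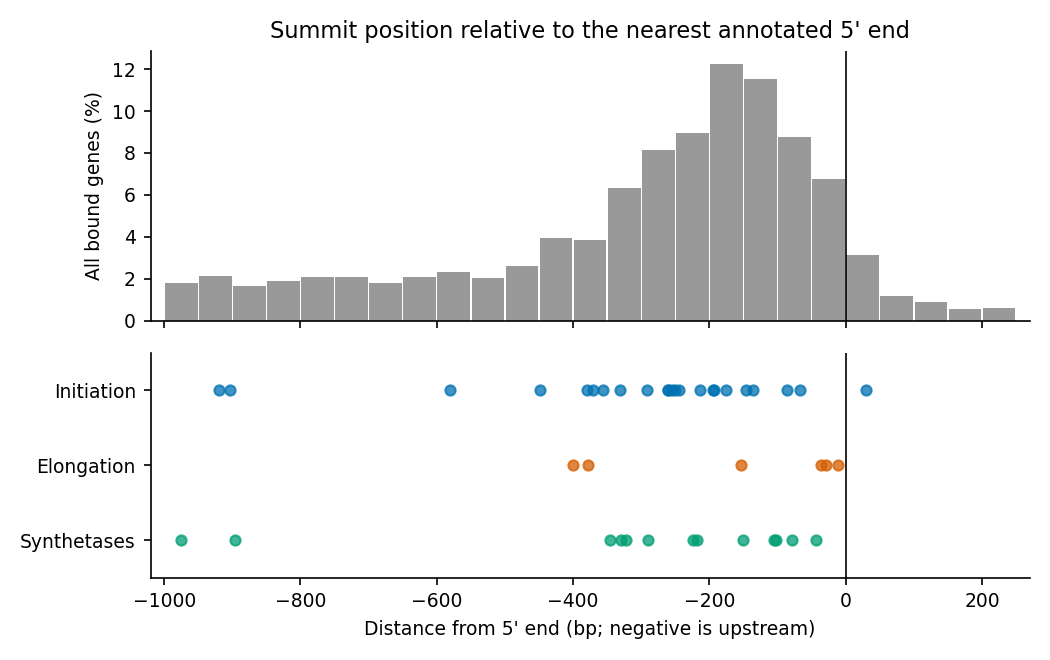
Position of the strongest summit relative to the nearest annotated 5′ end (horizontal axis in bp, negative upstream). Bars give the percent of all bound genes in each 50 bp bin, and points give bound members by group. Member summits lie upstream of that end except for eif-2Bdelta, and 36 of 42 lie within 500 bp upstream.

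Many member summits also lay in the window of another gene, and a shared summit does not tell which gene it serves. The summit lay in the window of at least 1 other gene for 25 of 42 bound members (59.5%), beside 42.1% of all bound genes. This held for 4 of 6 elongation factors, 12 of 23 initiation factors and 9 of 13 synthetases. With each summit assigned only to whichever gene has the closest 5′ end, and still required to lie in that gene's window, 32 members were bound, beside 15.3% of all genes. This alternative was chosen after seeing the data. It took the peak from eef-1A.1 and from 9 other members, among them eif-2Bbeta, eif-2Bepsilon and ifg-1. With no window required, 33 members were assigned a summit, with fars-2 added, beside 21.2% of all genes. Further partners of shared summits were B0511.17 (with eif-3.E), piga-1 (eif-2Bepsilon), mut-7 (eif-2Balpha) and pbs-2 (eif-6). The 42 strongest member summits were 42 distinct ones, so no peak was counted for more than 1 member.

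A lower share was bound among members close behind another gene on the same strand. In C. elegans such genes can be transcribed together as an operon from the promoter of the first gene, although spacing alone does not show this. Of 18 members with a same-strand gene ending within 500 bp upstream 6 were bound (33.3%), and of the other 53 there were 36 (67.9%). Over all genes the shares were 14.6% and 20.4%. Of the 29 unbound members 12 had such a neighbour (41.4%), beside 19.2% of all unbound genes, and 9 of these were synthetases. For 5 of the 12 (41.7%, beside 32.8% over all such genes) the window of the first gene of the run was bound. The first genes were phb-1 ahead of eif-2alpha, with a pooled signal of 152, egli-1 ahead of eif-3.F (73.8), prp-19 ahead of gars-1 (228), ZK524.4 ahead of lars-2 (87.6) and F10C2.4 ahead of dars-2 (91.1). For the other 7, among them ife-5, rars-2 and iars-2, it was not bound.

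**Figure D5:**
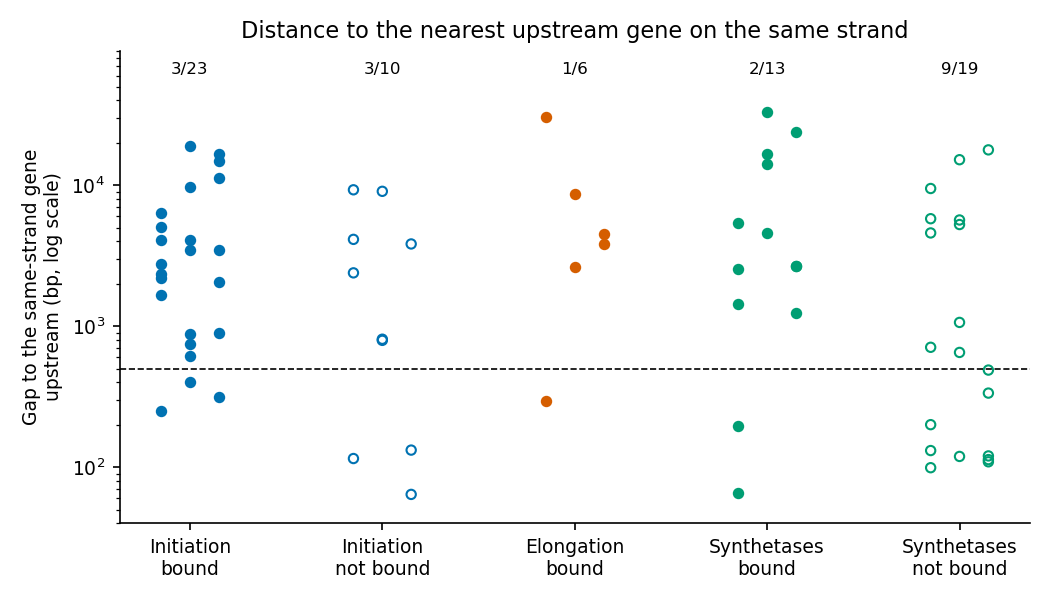
Distance in bp from each member to the nearest upstream gene on its strand (vertical log axis), for bound (filled) and unbound (open) members of each group. The dashed line marks 500 bp, and the counts at the top give the genes at or under it. These were 9 of 19 unbound and 2 of 13 bound synthetases, and 3 of 10 unbound and 3 of 23 bound initiation factors.

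Most motifs stood at member summits in shares near or under those at promoter summits as a whole. Within 50 bp of the summit TGACG stood at 9 of 42 members (21.4%) and at 22.6% of 3309 promoter summits. These 9 were eif-2Bdelta, eif-2Bepsilon, eif-3.C, eif-3.D, eif-3.H, ife-4, cars-1, nars-1 and sars-1, so 6 were initiation factors, 3 synthetases and 0 elongation factors. The full TGACGTCA was at eif-2Bepsilon alone (2.38%, beside 1.51%), and its match began 10 bp from the summit. TGACGTGG and TGACGTGT were at 0 members, beside 1.69% and 1.18%. TGATGNAA was at eif-2Balpha (2.33% of promoter summits), CACGTG at hars-1 (6.56%) and GAGAGAGA at eef-1A.2 (5.08%). In all, 12 member summits held a match (28.6%), beside 33.6%, and of the 8 members in the strongest 573 peaks only eif-3.C and eef-1A.2 did. A window with no match says only that these letters are not in it.

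Genes that work beside the members were also often bound. In 4 lists of such genes 25 of 31 symbols matched the annotation, and 19 of the 25 were bound (76%), beside 19.3% of all genes. The lists were chosen with earlier results of these data known, so this share is a description and not independent evidence. Among other initiation proteins 6 of 7 were bound, and 3 had peaks stronger than that of any member but iff-2. These were drr-2, related to mammalian eIF4H, with a pooled signal of 627 (relative signal 5.84 ± 1.05, SD, n = 2), ifet-1, an eIF4E-binding repressor (589, 5.54 ± 0.261), and larp-1, an RNA-binding protein (554, 5.17 ± 0.451). All 3 summits were shared, with set-16, the ribosomal protein gene rps-1 and wip-1. The poly(A)-binding protein genes pab-2 (189) and pab-1 (120) and the eIF4A gene inf-1 (69.8) followed, and iffb-1, for eIF5B, was not bound. The pab-1 and inf-1 summits were shared too, with rpl-30 and flap-1, and that of pab-2 was in no other window.

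The other lists had lower highest signals. Of the termination and recycling genes 4 of 5 were bound, namely the release factors erfa-1 (pooled signal 127) and erfa-3 (97.5) and the rescue and recycling genes pelo-1 (67.6) and abce-1 (66.6), while hbs-1 was not. Of the kinases and stress response genes 6 of 8 were bound. The highest was atf-4 (300, relative signal 2.80 ± 0.238, SD, n = 2), the ATF4 factor of the integrated stress response, followed by daf-15 (126), for Raptor, the eIF2 kinase genes pek-1 (126) and gcn-2 (96.8), the activator gene gcn-1 (112) and the eEF2 kinase gene efk-1 (86.8). The genes of the growth kinases S6K, rsks-1, and TOR, let-363, were not bound. Of the mitochondrial translation factors tufm-2 (213), gfm-1 (102) and tufm-1 (95.6) were bound, and tsfm-1 and mrrf-1 were not. The summits of atf-4, gcn-2, tufm-2, gfm-1 and the 4 bound termination and recycling genes also lay in the window of another gene. Those of daf-15, pek-1, gcn-1, efk-1 and tufm-1 were in no other window.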

How the data were processed

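ChIP-seq of tagged CRH-2 gave deposited narrowPeak lists for each of 2 biological replicates, for both pooled and after IDR, per the deposited file listings. Which caller and aligner were used is not stated in the labels or headers read here. Signal is the authors' deposited value for a region and served to describe and rank regions within a list. The deposited −log10 q-value was read and not used for any result. The IDR list equals the top 5735 pooled regions by signal. The lists on ce10 were not used, and 0 columns of per-sample values were left out for lack of a sample.

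Summits were placed against 5′ ends of protein-coding transcripts in Ensembl release 115 (WBcel235), and product names and sequence came from RefSeq. A replicate's value for a peak is its strongest region overlapping by 1 bp or more. Coordinates are 1-based. No test was run, since genes and peaks of 1 genome are not replicates, and the SD over 2 replicates may be technical. Depth is unknown, so no interval is given.

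Every member is named. The 5 bound members of each group with the highest pooled signal and the 3 nearest the end of the IDR list have values by replicate. The members, the lists and the motifs were chosen with earlier results of these data known. Assignment and motif search were tested on simulated data. Python 3.11.15, numpy 2.4.6 and matplotlib 3.10.9 were used. Alternatives changed the window, the gene assignment, the 5′ ends, the list length, the replicates, the grouping, the overlap and the motif window.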

Additional observations from a re-analysis of the deposited data

How the results depend on the processing

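The counts of bound members, of each group, the median relative signal and the motif count were recomputed under each alternative. The strongest 2867 peaks alone bound 23 members, 13 of them initiation factors, 6 elongation factors and 4 synthetases, beside 11.2% of all genes, and the members' median relative signal was then 1.52. This list is shorter by construction. With a window from 500 bp upstream to 100 bp downstream 37 members were bound, beside 15.5% of all genes. The median was then 1.05, as in the main setting to 3 digits. With 25 bp to each side of the summit 7 member summits held a motif, and with 100 bp 18 did. The other counts of bound genes stayed within 1.5 times of the main one. Bound members numbered 47 with a window from 2000 bp upstream to 500 bp downstream, beside 24.5% of all genes. They numbered 40 with the outermost 5′ end only, beside 17.9%. With each summit given to 1 nearest gene they numbered 32 with the window and 33 without it, beside 15.3% and 21.2%. Without either replicate bound members ranged from 41 to 42, initiation factors from 21 to 23 and synthetases from 13 to 14. The median relative signal was 1.05 without either replicate, and summits with a motif ranged from 10 to 13. The addition of mars-2, chosen after seeing the data, gave 43 bound members. Elongation factors stayed at 5 to 7 bound under each alternative. No paired analysis was possible because there was 1 group. Depth and the absence of a control library here limit what a missing peak can show.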
